A study of Homo sapiens with 40 samples.

Results

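Of the 2435 regions at which the retinoblastoma protein Rb was enriched in senescent over non-senescent EndoC-βH3 cells, 1162 lay away from protein-coding promoters and were scattered over the genome. They fell into 268 regions inside the bodies of protein-coding genes and 894 intergenic regions. A region counted as scattered when it did not come within 2 kb of a start site of a protein-coding transcript (GENCODE 44) and when its centre lay in a fixed 1 Mb bin that held fewer than 10 regions of the list. The members were therefore chosen by position and by the authors' peak calls, senescent against non-senescent libraries at an unadjusted p threshold. Neither enrichment for Rb nor distance from coding promoters is thus a finding about them. The rest of the list consisted of 282 promoter regions and of 991 regions away from promoters in dense bins, those with 10 or more regions.

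EndoC-βH3 is an established human beta-cell line, derived from fetal pancreas and immortalised with SV40 large T antigen and hTERT, which a tamoxifen-inducible Cre (CreER) can remove. Senescent cells had been treated with 4-hydroxytamoxifen for 3 weeks, control cells had not, and the genotype label was WT in both. Chromatin immunoprecipitation with an Rb antibody was carried out on 2 senescent and 2 non-senescent libraries, each with an input, among 40 libraries that also covered CTCF and the histone marks H3K27ac and H3K4me1. Since large T antigen binds and inactivates Rb, control cells are cells with inhibited Rb rather than cells that lack it. The Rb list holds positions without heights, and the marks are given as peaks with a mean over 6 libraries, so no spread between libraries could be computed and the depth behind each region is unknown. A larger share of cells with Rb at a site and more Rb per cell cannot be told apart in such data. H3K27ac peaks lay on the start sites of 7 of the 8 beta-cell genes checked for cell identity (INS, PDX1, NKX6-1, NKX2-2, NEUROD1, ISL1 and PAX6), and none lay on that of MAFA.

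Rb is a pocket protein that is best known for holding the E2F transcription factors in check at promoters of cell-cycle genes, which it does most strongly in cells that have left the cell cycle. It has no sequence-specific DNA-binding domain of its own and reaches DNA through partners such as the E2F and DP proteins. Rb has also been found at intergenic and repeated sequence, where it can act with chromatin-modifying enzymes.

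The members were a mixture of very different sequences, and 7 stretches from hg38 (plus strand) show the kinds. The first 3 are shown because they hold letters of an E2F site (in capitals: TTTCCCGC, TTTCGCGC, TTTGCCGC or TTTGGCGC, or their reverse complements). They are an intergenic member near TEX44 (300 bases around the centre, chr2:231604281-231604580), an intergenic member in the wider neighbourhood of SORCS1 (chr10:107914596-107914889), and, for comparison, the region at the KMT2E promoter (chr7:105012536-105012798), which is no member.
TEX44 neighbourhood: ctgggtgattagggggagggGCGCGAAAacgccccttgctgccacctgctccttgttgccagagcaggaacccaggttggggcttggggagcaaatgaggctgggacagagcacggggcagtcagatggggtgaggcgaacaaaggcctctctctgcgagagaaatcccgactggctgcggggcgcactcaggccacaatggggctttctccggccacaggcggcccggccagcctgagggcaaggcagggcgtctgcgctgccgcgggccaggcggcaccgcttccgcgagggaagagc
SORCS1 neighbourhood: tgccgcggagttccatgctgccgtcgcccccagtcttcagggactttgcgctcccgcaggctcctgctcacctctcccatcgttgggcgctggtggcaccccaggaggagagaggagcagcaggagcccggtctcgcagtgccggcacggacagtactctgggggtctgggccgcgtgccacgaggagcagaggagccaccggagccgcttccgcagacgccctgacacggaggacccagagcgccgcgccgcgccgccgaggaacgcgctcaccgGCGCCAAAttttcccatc
KMT2E promoter: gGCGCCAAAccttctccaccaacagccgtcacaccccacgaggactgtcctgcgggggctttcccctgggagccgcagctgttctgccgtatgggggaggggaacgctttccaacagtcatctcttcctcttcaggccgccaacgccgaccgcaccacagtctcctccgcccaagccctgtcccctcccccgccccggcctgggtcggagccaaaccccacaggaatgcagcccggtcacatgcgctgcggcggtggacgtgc
The member at the start of MIR17HG (chr13:91348397-91348609) is shown as a CpG-rich start site of a non-coding gene, and the member in an intron of GPC5 (chr13:92093619-92093742) because its base composition is close to that of the typical member.
MIR17HG start: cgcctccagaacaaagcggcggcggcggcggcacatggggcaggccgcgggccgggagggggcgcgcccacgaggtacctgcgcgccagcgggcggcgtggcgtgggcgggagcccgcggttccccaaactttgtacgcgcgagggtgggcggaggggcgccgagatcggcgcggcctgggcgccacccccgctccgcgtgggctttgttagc
GPC5 intron: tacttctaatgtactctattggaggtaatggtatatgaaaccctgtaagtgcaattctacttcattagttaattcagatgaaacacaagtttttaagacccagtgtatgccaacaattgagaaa
The other two are the member with the highest CTCF signal (chr21:8387299-8387590), upstream of a ribosomal RNA gene, and the most repeated member of gene bodies (an intron of SH3RF3, chr2:109199462-109199744).
Ribosomal RNA gene, upstream: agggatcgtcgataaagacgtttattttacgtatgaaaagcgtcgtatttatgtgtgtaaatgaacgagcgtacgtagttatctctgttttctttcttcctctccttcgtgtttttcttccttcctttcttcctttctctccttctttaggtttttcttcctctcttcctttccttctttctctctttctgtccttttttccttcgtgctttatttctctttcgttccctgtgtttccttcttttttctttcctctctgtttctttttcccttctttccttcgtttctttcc
SH3RF3 intron: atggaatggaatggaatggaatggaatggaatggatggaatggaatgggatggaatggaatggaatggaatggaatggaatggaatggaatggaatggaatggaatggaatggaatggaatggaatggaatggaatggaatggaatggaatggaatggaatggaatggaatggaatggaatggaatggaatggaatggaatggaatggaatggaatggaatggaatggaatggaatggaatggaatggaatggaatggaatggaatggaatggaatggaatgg
The SH3RF3 stretch is nearly pure GGAAT, the unit of satellites II and III, with 95.4% of its bases in that unit, and the GPC5 stretch has a GC content of 33.1% against 77.9% at MIR17HG.

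A minority of members overlapped a peak of H3K27ac, a mark of active promoters and enhancers, or of CTCF, at shares above those of grid windows. An H3K27ac peak overlapped 93 of the 1162 members by at least 1 bp, a share of 8.0% with a 95% Wilson interval of 6.58 to 9.71%. The share was 10.4% in gene bodies (28 of 268) and 7.27% in intergenic sequence (65 of 894), and the intervals of both, 7.33 to 14.7% and 5.75 to 9.16%, overlapped. Among promoter Rb regions it was 95.7% (270 of 282), and in dense bins 1 of 991 regions overlapped a peak. As background, 4.70% of 29367 windows of 250 bases, placed every 100 kb along the genome, overlapped an H3K27ac peak, and 3.44% of the 28035 of them that lay more than 2 kb from a coding start (5.19% in gene bodies and 2.12% in intergenic sequence). CTCF peaks overlapped 52 members (4.48%, interval 3.43 to 5.82%), against 29.8% of promoter Rb regions, 1.11% of dense-bin regions, 2.06% of all grid windows and 1.72% of those away from coding starts. These intervals cover counting error only, and regions are not replicates of a condition.

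**Figure D1:**
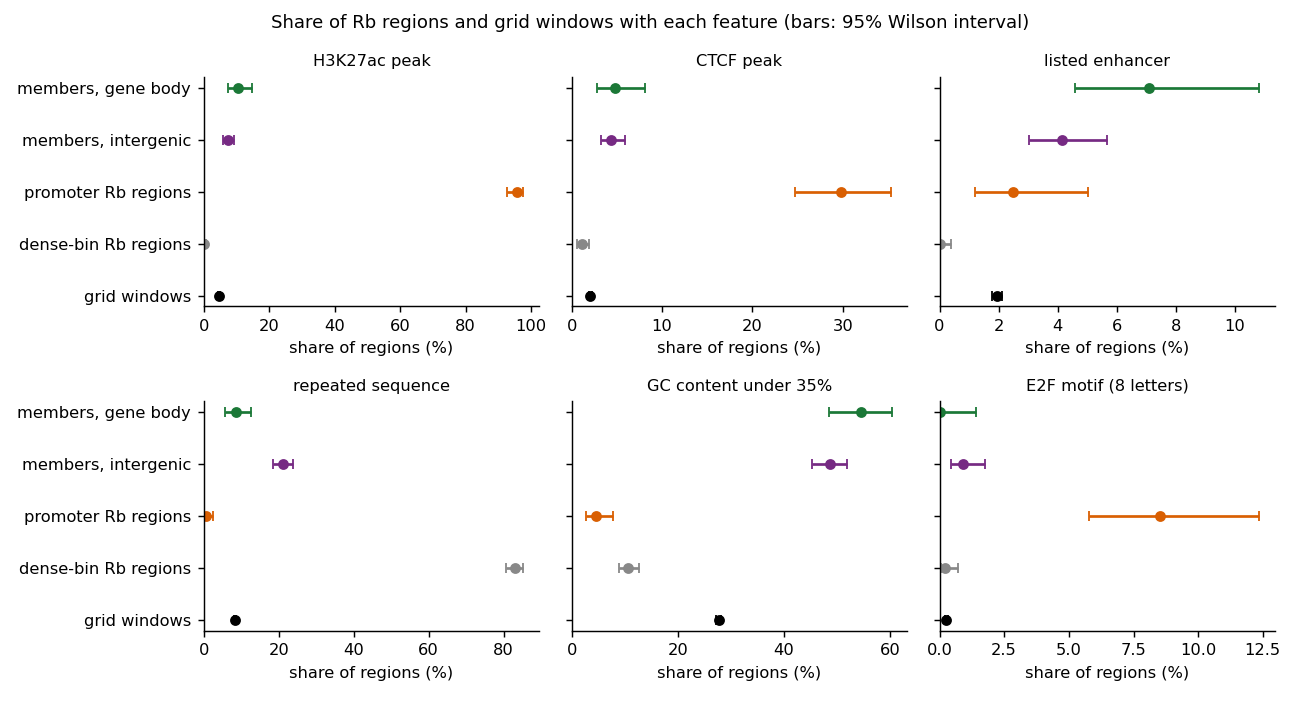
Share of regions (%, x axis of each panel) with an H3K27ac peak, a CTCF peak, a listed enhancer, repeated sequence, a GC content under 35% or an E2F motif, for members in gene bodies and intergenic sequence, the other Rb regions and grid windows. Points are shares and bars 95% Wilson intervals. The H3K27ac share is 10.4% and 7.27% in the members and 95.7% at promoters.

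The members that did overlap H3K27ac sat on peaks with high signal, also when set beside grid windows. The median of the authors' mean normalized count of their peaks was 925 (n = 93, range 58.6 to 14597), beside 118.7 over all 51489 H3K27ac peaks, and 83 of the 93 lay above that overall median. Since a mean count grows with peak width and wide peaks are hit more often, the fitting background is the 963 of 28035 grid windows more than 2 kb from a coding start that overlapped a peak. Their peaks had a median mean of 314.9, with 72.1% above the overall median, and a median width of 3133 bases, beside 3336 for the peaks of the members and 1742 for all peaks. Among Rb regions the median of the peak means was 926 for members in gene bodies, 925 for intergenic members and 1188 for promoter Rb regions. The 93 members lay on 91 distinct peaks. Their GC content was higher than that of the other members, with a median of 51.2% and with 41 of 93 above 55%. Of the 860 members without H3K27ac and with low-copy sequence, 8 exceeded 55%. The GC content of grid windows with H3K27ac was not computed, so this contrast holds among members only.

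**Figure D2:**
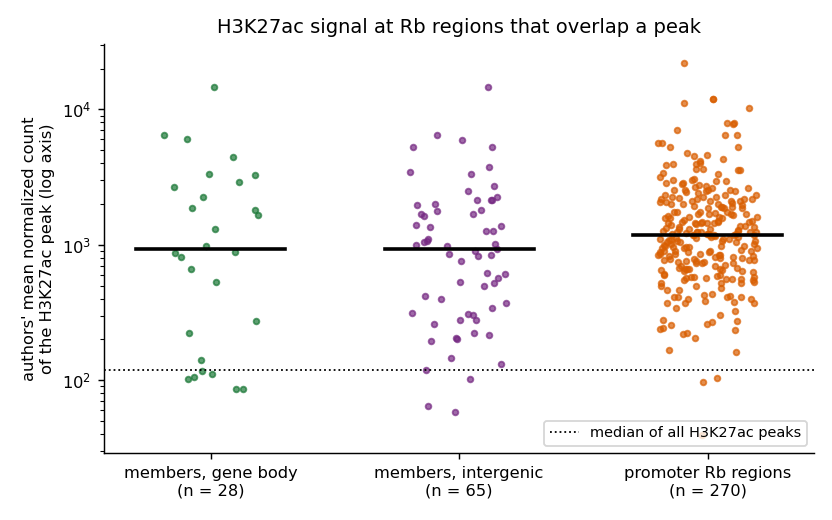
Authors' mean normalized count of the H3K27ac peak (log axis) for each Rb region that overlaps one, by class. Each point is a region, black bars are medians and the dotted line is the median of all peaks, 118.7. The medians of the classes are 926, 925 and 1188.

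Part of the H3K27ac-marked members lay near start sites of non-coding genes. Within 2 kb of 28 of the 93 H3K27ac-marked members (30.1%) lay the start of a gene that is not protein-coding, against 46 of the 1069 members without H3K27ac (4.30%). Of the 28, 21 were lncRNA starts and 5 pseudogene starts, and 12 of the 28 members also lay in enhancers listed by the study. The like share of grid windows with H3K27ac was not computed. Their median GC content was 62.7%, their median ratio of observed to expected CpG was 0.687, and 11 of them also overlapped a CTCF peak. The members at lncRNA starts with a gene name, which were picked out after their values were seen, included the hosts of microRNAs. The member at MRPL23-AS1 (chr11:1989538-1989800), 193 bases from its start, lay on a peak with a mean of 5906. At MIRLET7IHG, the host of let-7i, a microRNA family that restrains proliferation, the member (chr12:62602901-62603117) lay within 2 kb of the start, with an H3K27ac mean of 2489 and a CTCF mean of 107.8. At MIR17HG, the host of the miR-17-92 cluster that drives proliferation, it lay 206 bases from the start, with means of 1997 and 689.5. Both microRNA hosts thus carried Rb, H3K27ac and CTCF peaks at their starts. The members at ENTPD3-AS1, LINC00847 and CHROMR, a lncRNA tied to cholesterol and antiviral responses, lay on peaks with means of 1767, 1387 and 925. The remaining 4 of the 10 named starts had lower means, 521.2 at LINC01143, 222.7 at LINC02246, 145 at LINC02109 and 131.7 at LINC00865.

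Enhancers listed by the study overlapped 56 members (4.82%, interval 3.73 to 6.21%), beside 1.94% of grid windows. All 56 were among the 93 with H3K27ac. This follows largely from the study's definition of enhancers, which asked for both H3K27ac and H3K4me1 signal away from promoters. The share was 7.09% in gene bodies and 4.14% in intergenic sequence. Of the 56, 43 lay in enhancers of both the senescent and the non-senescent list, 9 in enhancers of the non-senescent list alone and 4 in enhancers of the senescent list alone. The larger enhancer list was the non-senescent one, with 14886 enhancers against 13076, of which 10515 and 10396 overlapped the other list. These are 79.5% of the senescent and 70.6% of the non-senescent list, shares of enhancers within a single list. Of the 56 members, 76.8% lay in enhancers of both lists (interval 64.2 to 85.9%). The like background is the 544 grid windows more than 2 kb from a coding start that overlapped a listed enhancer. Of these, 58.5% lay in enhancers of both lists (interval 54.3 to 62.5%), below the interval of the members.

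The highest H3K27ac signals belonged to a single peak at the 3′ end of ASXL3, a Polycomb-associated chromatin gene. Its mean of 14597 was shared by a member of 15 bases at an ASXL3 exon (chr18:33749763-33749777) and an intergenic member of 403 bases (chr18:33753827-33754229). In gene bodies it was followed by members in MNT, a MAX-binding repressor of the MYC network (6455), AHRR, the repressor of the aryl hydrocarbon receptor (6037), AOPEP, an aminopeptidase gene (4472), and NT5C3A, an interferon-induced pyrimidine nucleotidase gene (3355). Of these 5 gene-body members, those in MNT and NT5C3A lay outside the listed enhancers. The MNT, AHRR and AOPEP members had GC contents of 72.0%, 72.7% and 69.8%. In intergenic sequence it was followed by the members 11408 bases from TEX44 (6458), at MRPL23-AS1 (5906), 231042 bases from KCNU1 (chr8:37015416-37015683, 5290) and 749890 bases from SORCS1 (5288). TEX44, KCNU1 and SORCS1 are named as the genes with the nearest coding start. Of these members, the one at MRPL23-AS1 lay outside the listed enhancers. Both members with E2F letters printed above, named after TEX44 and SORCS1, lay in enhancers of both lists.

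The state-specific enhancers held few members. These members are named by the nearest coding start, however far, save the one at LINC02109. In the non-senescent list alone, the highest means were at a member 50735 bases from NKX2-2, a transcription factor of beta-cell identity (chr20:21564799-21564986, 3430), one 173652 bases from CLXN (chr8:48555786-48556137, 1400) and one 41503 bases from CYTIP (chr2:157397506-157397911, 1018). In the senescent list alone, the highest were at members 37728 bases from TARP (chr7:38311364-38311758, 260.4), 380524 bases from GOLIM4 (chr3:168476448-168476464, 213.9) and 55 bases from LINC02109 (chr5:29191754-29192032, 145). With 9 and 4 members no order between the lists was drawn from these values.

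CTCF, a factor that organizes chromatin loops, had its highest signals at members upstream of ribosomal RNA genes. Of the 52 peaks at members, 33 had a mean above the median of all CTCF peaks (58.6). The members at chr21:8387299-8387590 and chr21:8204277-8204554 lay on peaks with means of 4814 and 4764 and ended 1445 and 1434 bases upstream of RNA45SN3 and RNA45SN2, the precursor genes of the ribosomal RNAs (RefSeq, GRCh38.p14). The next highest mean, 689.5, was at MIR17HG. Words of 31 bases in both ribosomal members stood at a median of 4 places in the assembly, so reads there could have come from more than 1 copy. Copies outside the 24 chromosomes of the assembly were not counted. How far both means rest on reads pooled from several copies was not tested. CTCF overlapped 24 of the 93 members with H3K27ac and 28 of the 1069 without.

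E2F letters stood in few members, at a share above that of grid windows and below that of promoters. An 8-letter E2F match stood in 8 of 1162 members (0.689%, interval 0.349 to 1.35%), all 8 intergenic, and in 0 of 268 gene-body members. It stood in 24 of 282 promoter Rb regions (8.51%), in 78 of the grid windows (0.266%) and in 3.11% of 19689 windows of 250 bases centred on protein-coding starts. Of the 8, 5 were marked by H3K27ac. Their nearest coding starts, at distances of 11408 to 749890 bases, were those of TEX44, SORCS1, STMN1, a microtubule regulator gene that proliferating cells express strongly, RNF135 and CLXN. Shortened to the 7-letter core, without the first T, the match stood in 21 members (1.81%, interval 1.19 to 2.75%). That interval holds the 1.22% of all grid windows but lies above the 1.08% of those more than 2 kb from a coding start. The core stood in 4.54% of dense-bin regions, 23.05% of promoter Rb regions and 13.6% of the windows at coding starts. Of the 21, 9 were marked by H3K27ac, 11 were repeated and unmarked, and 1 was among the 860 low-copy members without H3K27ac. The CHR letters (TTTGAA, with TTCGAA as a variant), part of the element bound by the MuvB complex, stood in 31.4% of members and 27.6% of grid windows, and the AP-1 letters TGACTCA, likewise on either strand, in 2.24% and 3.64%. The 8-letter E2F sites contain the core, so both E2F counts overlap, and a match or its lack in a window says nothing of binding. Members were narrower than the windows, with a median width of 225 bp (range 1 to 1578), and 114 of them were under 50 bp.

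Repeated sequence made up a further part. A region counted as repeated when its 31-base words stood, at the median, at 10 or more places in the genome, on either strand. By this measure 212 members were repeated (18.2%, interval 16.1 to 20.6%), 8.58% in gene bodies and 21.1% in intergenic sequence. Grid windows were repeated in 8.39%, close to the gene-body share, dense-bin regions in 83.05% and promoter Rb regions in 0.709%. Of the 212, 209 had no H3K27ac peak, and their words stood at a median of 167 places. The period of alpha satellite, the repeat of centromeres, was scored as the share of bases equal to the base 1 satellite unit further on, in 1 kb around the centre. It reached 50% or more in 99 members, all intergenic, and in 46.2% of dense-bin regions, 1.22% of grid windows and 0 gene-body members. In 41 members, 20% or more of the bases lay in GGAAT or its complement ATTCC (3.53%, against 0.0987% of grid windows). Neither satellite measure followed the word count closely. Of the 99 members with the alpha-satellite period 62 were repeated and 37 were low-copy, and of the 41 rich in GGAAT 4 were repeated and 37 were low-copy.

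Some of the repeated members lay beside the dense bins. A bin next to a dense bin held 143 of the 894 intergenic members (16.0%) and 3 of the 268 in gene bodies. The 143 were repeated in 40.6% and overlapped H3K27ac in 1 case, whereas the 751 other intergenic members were repeated in 17.4% and overlapped H3K27ac in 64 cases. The 3 widest members, of 1578, 1463 and 1200 bases, lay on chromosomes 17 (chr17:123412-124989), 22 (chr22:10722675-10724137) and 1 (chr1:121754622-121755821), with words at a median of 41, 2 and 1705 places, and none overlapped an H3K27ac or CTCF peak. The chromosome 22 member, which was not repeated by the definition used, had 45.5% of its bases in the GGAAT unit.

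The largest kind, 860 members (218 in gene bodies and 642 intergenic), had no H3K27ac peak and words that stood, at the median, at fewer than 10 places. Low copy by this measure did not mean free of satellite sequence, since 74 of the 860 (8.60%) reached the alpha-satellite or the GGAAT limit given above. Over the 786 that reached neither, the median GC content was 32.6% and 79.5% lay below the GC content of their own 1 Mb bin, so the values below did not rest on the 74. The 860 members were rich in A and T. Their median GC content was 33.3%, with quartiles of 29.6% and 37.01%, against 40% in grid windows and 68.8% in promoter Rb regions. A GC content under 35% was found in 531 of them (61.7%, interval 58.5 to 64.9%) and in 27.7% of grid windows. They were also poorer in GC than their surroundings, since 681 of the 860 (79.2%) lay below the GC content of their own 1 Mb bin, compared with 52.4% of grid windows. Gene-body and intergenic members were alike in this, with medians of 32.9% and 33.3% and shares below their own bin of 78.4% and 79.4%. The grid values of GC content cover all windows, including those at coding starts, with H3K27ac or of repeated sequence. Like values without such windows were not computed. Over the 756 of at least 50 bp the median was 33.1%. CTCF peaks overlapped 24 of the 860 (2.79%, interval 1.88 to 4.12%). That interval holds the 2.06% of all grid windows but lies above the 1.72% of those more than 2 kb from a coding start.

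**Figure D3:**
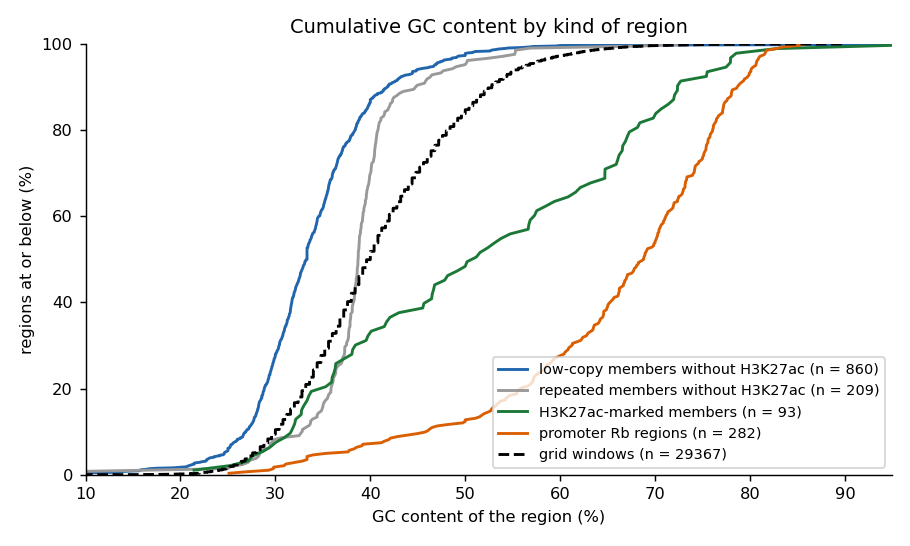
Cumulative share of regions (%, y axis) at or below each GC content (%, x axis) for the 3 kinds of members, promoter Rb regions and grid windows. The curve of the low-copy members without H3K27ac lies left of the grid windows (medians 33.3% and 40%), and that of the H3K27ac-marked members lies between the grid windows and the promoter regions.

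The members were spread unevenly over the chromosomes. All 24 chromosomes held at least 1, and together they held 0.396 per Mb of assembled sequence. Chromosome 13 held 127, or 1.30 per Mb, which is 10.9% of members on 3.34% of the sequence. It carried 3.25% of the H3K27ac peaks, 3 of the 282 promoter Rb regions and no dense bin. Chromosomes 20, 22, 21 and 1 followed with 0.845, 0.792, 0.699 and 0.634 per Mb, and at the lower end chromosome X held 0.0839 and chromosome 19 a single member. Of the 127 on chromosome 13, 119 were low-copy and without H3K27ac, 7 repeated and 1 marked by H3K27ac, the one at MIR17HG.

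**Figure D4:**
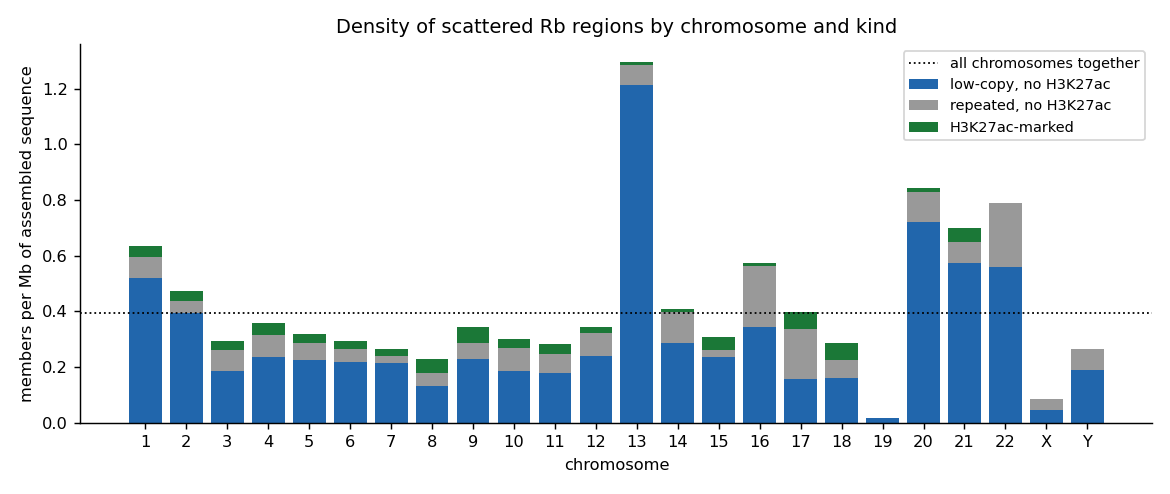
Members per Mb of assembled sequence (y axis) on each chromosome, stacked by kind, with the value over all chromosomes (0.396) as a dotted line. Chromosome 13 stands highest at 1.30 per Mb, most of it low-copy members without H3K27ac, and chromosomes 19 and X lowest.

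Within chromosome 13, most members lay in a gene-poor stretch of its long arm. The bounds of this stretch, and of the one on chromosome 1 below, were not planned and were set where members were many. Their high density follows in part from that choice. Between 60 and 100 Mb lay 110 members, 2.75 per Mb and 9.47% of all, of which 108 were low-copy and without H3K27ac. They were spread over 29 of the 40 bins there. Their median width was 182 bp and the median distance to the next Rb region 78962 bases. Their median GC content was 31.6%, against 36.0% in the 400 grid windows of the same stretch. A single promoter Rb region was found there, beside 65 protein-coding genes and 691 H3K27ac peaks. On chromosome 1, between 140 and 200 Mb, 94 members lay at 1.65 per Mb, 83 of them low-copy and unmarked, with a median GC content of 32.3% against 39.6% in 568 grid windows. Low-copy unmarked members outside both stretches (669) had a median GC content of 33.4%, and 79.7% of them lay below the GC content of their own bin, so the low GC was not particular to these stretches.

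Base composition of the bin went along with the density, and chromosome 13 stood apart within a composition class. Over bins with at least 90% assembled sequence, the low-copy unmarked members numbered 0.549 per bin below 37% GC, 0.312 from 37 to 39%, 0.209 from 39 to 42% and 0.105 above. In bins below 37% GC, chromosome 13 held 2.86 per bin (35 bins, 26 of them with at least 1) and chromosome 1 held 1.25 (32 bins), against 0.347 over the 510 such bins of the other chromosomes. In the highest class the corresponding values were 0.0714, 0.215 and 0.0938. Chromosomes 20, 21 and 22, pooled with the others here, held 46, 23 and 22 low-copy unmarked members on 63.9, 40.1 and 39.2 Mb. These are more per Mb than on chromosome 1, with 120 on 230.5 Mb. What moves with chromosome 13 beyond base composition was not tested.

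**Figure D5:**
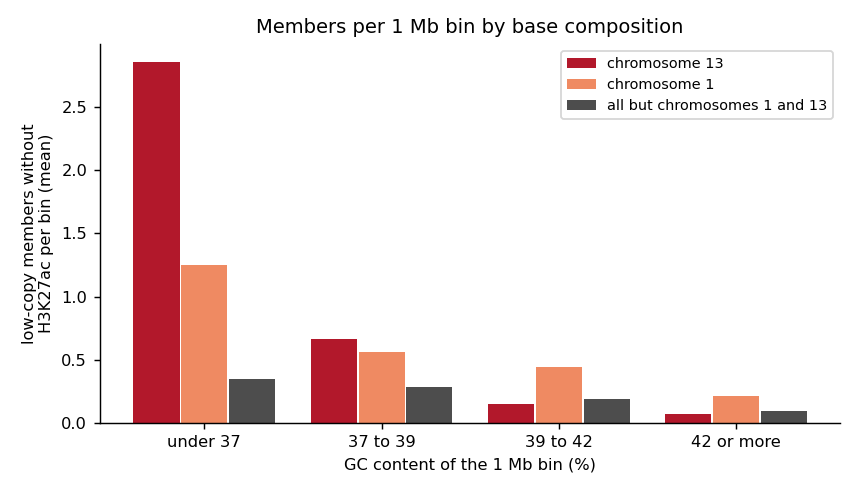
Mean number of low-copy members without H3K27ac per 1 Mb bin (y axis) by GC content of the bin (x axis), for chromosome 13, chromosome 1 and the other chromosomes pooled. Below 37% GC the values are 2.86, 1.25 and 0.347.

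Any set of positions in gene bodies falls in long genes in proportion to their length. The 268 members fell in 235 protein-coding genes, 216 of which held 1 each. Taken per member, the median host length was 240804 bases, beside 190974 for grid windows in gene bodies more than 2 kb from a coding start. Gene bodies held 23.1% of members (interval 20.7 to 25.6%) and 44.4% of assembled bases, and 21 gene-body members touched an exon of a coding gene. The genes with the highest numbers of members were GPC5, a heparan sulphate proteoglycan gene on chromosome 13 (7 members in 1475.1 kb), PCDH9, a protocadherin gene on the same chromosome (6 in 927.6 kb), and HMCN1, an extracellular matrix gene on chromosome 1 (4 in 456.6 kb). None of these 17 members overlapped H3K27ac, and their widths ranged from 10 to 321 bp. The chromosome 13 stretch also held 3 members in KLHL1 and 2 in GPC6.

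Of the 1167 genes matched in the lists considered, 22 hosted a member (1.89%, interval 1.25 to 2.84%), beside 1.17% of all protein-coding genes. These shares of genes take no account of gene length, so no excess was read from them. Of the 22, 10 belonged to the list of 63 neuronal adhesion and synapse organizer genes, which took 3.68% of gene-body bases. No member lay in the body of any of the 92 cell cycle genes, 190 p53 pathway genes, 76 genes of the senescence-associated secretory phenotype, 21 genes of the Rb family, E2F and MuvB, or 28 beta-cell transcription factor genes. These 5 lists took 0.315%, 0.726%, 0.299%, 0.110% and 0.191% of gene-body bases. Of 195 E2F targets 4 hosted a member (2.05% of the genes, and 1.49% of gene-body members on 0.678% of gene-body bases), namely DIAPH3, a formin gene, NUP107, a nuclear pore gene, PRIM2, the large primase subunit, and STAG1, a cohesin gene, and none of the 4 regions overlapped H3K27ac. The region in DIAPH3 (chr13:59942496-59942752) touched no exon, lay 70426 bases from the nearest coding start and had a GC content of 29.2%. Of 72 beta cell maturity genes, CADPS and STXBP5, both genes of vesicle exocytosis, hosted 1 each (0.746% of gene-body members on 0.610% of bases). Of 200 insulin secretion genes, which took 1.54% of bases, ADCY8, an adenylyl cyclase gene, hosted 1 member (0.373%). Of 341 interferon-stimulated genes, AIM2, a sensor of cytosolic DNA, and NT5C3A hosted 1 each (0.746% of members on 1.41% of bases). The members in ADCY8 and PRIM2 were of repeated sequence. The list counts rest on 0 to 4 members each and no order between these lists was read from them.

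The list of 63 neuronal adhesion and synapse organizer genes held 15 members in 10 genes (CDH18, CDH2, CNTNAP2, CNTNAP3, CSMD3, DCC, LSAMP, NRXN3, PCDH9 and ROBO1), which is 5.60% of gene-body members on 3.68% of gene-body bases. Of the 15, 6 were those of PCDH9. Among these 10 genes the member in CDH2, the N-cadherin gene, was the one with H3K27ac, at a mean of 85.8. Of 40 excitability channel genes CACNA1E, RYR3 and SCN9A hosted 1 each, 1.12% of members on 0.846% of bases. The members in CSMD3 and SCN9A were of repeated sequence. The names outside the 12 leading host genes were added after their values were seen.

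The limits of the definition bore on many members, most of all the limit on regions per bin. With fewer than 5 regions per bin the members would number 819, with 30.3% in gene bodies, and with fewer than 20 they would number 1530, with 17.5%. Distance from coding starts was used by the definition and is given as a description. Its median was 43348 bases for gene-body members and 382719 for intergenic members, beside 29628 and 151116 for grid windows that also lay more than 2 kb from a coding start. Just outside the 2 kb limit lay members at HTR2B (2057 bases), APBB2 (2116) and TCF12 (2500), and just inside it promoter regions at ZNF217 (1981), KCNMB3 (1917) and CCNI (1630). The APBB2 member had an H3K27ac mean of 1051, and of the promoter regions the one at KCNMB3 overlapped a peak, with a mean of 167.6. Bins with 9 regions held 90 members in 10 bins, and the 6 bins with 10 regions held 59 regions away from promoters that were left out. Of the members, 439 were alone in their bin, 380 lay in bins with 2 to 4 regions and 343 in bins with 5 to 9. The nearest Rb region lay within 10 kb for 133 members and beyond 1 Mb for 279.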

How the data were processed

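The authors' pipeline, as their methods give it, aligned trimmed reads with Bowtie2 to hg38 and called Rb peaks with MACS2 on senescent against non-senescent libraries at an unadjusted p threshold. The inputs were not named as the control of that call. H3K27ac peaks came from HOMER and CTCF peaks from MACS2, both against input. Versions and the pooling of replicates were not given in the sources used here. The deposited lists of Rb regions and enhancers hold positions. In the deposited H3K27ac and CTCF tables, the mean signal per peak is the authors' mean over 6 libraries of read counts scaled by DESeq2 size factors. The tables' remaining columns hold the authors' own comparison of both states (fold changes and p-values) and were not used. No values per library or depths are given, so no test was run.

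Regions were overlapped by at least 1 bp, and a region was in a gene when its centre was. Promoters, genes and exons came from GENCODE 44 on hg38, and gene names of ribosomal RNA genes from RefSeq. Where a region met several peaks, the one that shared most bases gave the signal. Word counts covered 24 chromosomes. For regions under 31 bases the 31 bases around the centre were used. Shares carry 95% Wilson intervals (counting error only). Functions were tested on simulated data. Python 3.11.15, numba 0.67.0, pysam 0.24.0 and scipy 1.17.1 were used.

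Regions were named by rule: the 5 highest H3K27ac means in gene bodies and in intergenic sequence, the 3 highest per state-specific enhancer list, the 3 genes with most members, the 12 leading list genes among hosts, the 3 regions nearest either side of the 2 kb limit, the 3 highest CTCF means and the 3 widest. Of 1333 list entries, 1278 matched by symbol, 45 by an older symbol and 10 did not match. 7 of the 11 lists were signatures that the study used. The members and lists were chosen with earlier results of these data known. The sequences of MIR17HG and GPC5 were added after the values were seen. Grid windows away from coding starts were set beside the members, and all 10 named lncRNA starts were given, after the values were seen. The most repeated intergenic member is not reported here. Alternatives changed the promoter window, start sites, bins, widths, chromosomes, repeats, overlap and motif.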

Additional observations from a re-analysis of the deposited data

How the results depend on the processing

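Of 124 values recomputed for 13 results, 85 stayed within the interval of the reported value (counts within 1.5 times) and 39 did not. Limiting members to 250 bp or more moved most: 438 members, with shares of 18.3% in gene bodies, 10.3% with H3K27ac, 6.62% with CTCF, 6.39% in enhancers, 8.68% near non-coding starts, 30.6% repeated, 1.6% with E2F letters and 17.6% beside dense bins, a median distance to coding starts of 279998 bases, a median GC content of 36.1% and 12 list genes among hosts. With fewer than 5 regions per bin the shares were 30.3% in gene bodies, 11.4% with H3K27ac, 5.86% with CTCF, 6.84% in enhancers, 14.2% repeated and 2.93% beside dense bins, with a distance of 127435 bases. With fewer than 20 they were 17.5%, 6.14%, 3.66% in enhancers, 27.1% repeated and 28.9% beside dense bins, with a distance of 411501 bases and a GC content of 35.9%. Without repeated members the gene-body share was 25.8%, the repeated share 0 by construction, the share beside dense bins 9.26%, the distance 171834 bases and the GC content 33.5%. Leaving out start sites of every GENCODE transcript gave 5.5% with H3K27ac, 3.26% with CTCF and, by construction, 0 near non-coding starts. Counting every GENCODE gene put 41.4% of members in gene bodies. The repeated share was 33.6% at a word count of 2 and 10.5% at 100, the E2F share 1.81% with the 7-letter core, and the share beside dense bins 10.2% with bins shifted by 0.5 Mb. Promoter windows of 1 and 5 kb, autosomes alone and an overlap of at least 0.5 of the Rb region moved no value outside its interval. No paired analysis was possible because the deposited files hold pooled positions and means and the results come from no test. The Rb list carries no heights, so a stricter peak threshold could not be set, and precision per region is unknown.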
